A study of Mus musculus with 6 samples.

Results

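The 7 genes described here encode the inhibitors of cyclin-dependent kinases (CDKs) of mouse: the INK4 family (Cdkn2a, Cdkn2b, Cdkn2c, Cdkn2d) and the CIP/KIP family (Cdkn1a, Cdkn1b, Cdkn1c). They were picked by symbol from the gene-level RNA-seq table, 7 of 37753 entries with values, and all 7 were among the 12461 entries with a mean of at least 1 FPKM (fragments per kilobase of transcript, scaled to the number of mapped reads) that were tested. The 2 groups were primary mammary epithelial cells (MEC) and mammary tumor cell lines that lack the stress-activated kinases JNK1 (Mapk8) and JNK2 (Mapk9), called MEKO. MEC libraries 1, 2 and 3 came from Wap-Cre+/- females of strain C57/Bl6J with intact JNK genes, each a pool of 3 to 5 virgin mice aged 10 to 12 weeks, grown on collagen. MEKO libraries came from tumor lines 199, 233 and 336, 1 line per library, from parous mice of the same strain with Wap-Cre+/- and LoxP/LoxP alleles of both Mapk8 and Mapk9 (genotype label Mapk8KO Mapk9KO Cre+), passed 2 times on collagen before growth in standard dishes. All 6 libraries therefore carried the Wap-Cre transgene, which is induced by lactation and acts in luminal cells. JNK genotype, tumor origin, age of the mice, parity and time in culture changed together, so their parts in a difference cannot be told apart. The tumor mice were older than the MEC mice, since they were followed for tumors only after weaning. Each line stands for 1 tumor. The sources differ on histology: the series description calls all 3 lines adenosquamous, while the study lists the tumor of line 199 as adenosquamous carcinoma, that of line 336 as adenocarcinoma and that of line 233 as both.

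CDK inhibitors hold the cell cycle in G1 phase. INK4 proteins bind Cdk4 and Cdk6 and keep D-type cyclins from activating them, so the retinoblastoma protein stays unphosphorylated and E2F factors stay silent. CIP/KIP proteins bind complexes of cyclins with Cdk2 and Cdk1, and at low levels they also help cyclin D to assemble with its kinases. Cdkn2a is unusual because its 2 start sites give 2 unrelated proteins in different reading frames: p16Ink4a, a CDK inhibitor, and p19Arf, which binds Mdm2 and so stabilises p53. Cdkn2a is known to come on when normal cells are kept in culture or receive an oncogenic signal. Cdkn1a (p21) is the classical p53 target, Cdkn1b (p27) is controlled largely by protein turnover, and Cdkn1c (p57) is an imprinted gene expressed from the maternal copy.

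Start-site sequences are shown for the gene that passed the test (Cdkn2a), its neighbour that did not (Cdkn2b), and the p53 target whose level split the lines (Cdkn1a). RefSeq windows (GRCm38.p6) were found for 6 of the 7 genes, 9 windows in all, each read over the 250 bases before the start. Capitals mark matches, on either strand, to a GC box (GGGCGG), an E2F site (TTTCCCGC or TTTGGCGC), a cyclic AMP response element (TGACGTCA) or a p53 half-site (ACATGTC). An AP1 site (TGANTCA), an E-box (CACGTG) and a TATA box (TATAAA) were also searched and were found in 0 of the 9 windows. These motifs were chosen after the windows had been read, and matches of different motifs overlapped in 0 cases. The Arf start of Cdkn2a lies 12.4 kb upstream of the Ink4a start, and a gene-level FPKM adds the transcripts of both.
Cdkn2a, Arf start, chr4:89294620-89294869, minus strand: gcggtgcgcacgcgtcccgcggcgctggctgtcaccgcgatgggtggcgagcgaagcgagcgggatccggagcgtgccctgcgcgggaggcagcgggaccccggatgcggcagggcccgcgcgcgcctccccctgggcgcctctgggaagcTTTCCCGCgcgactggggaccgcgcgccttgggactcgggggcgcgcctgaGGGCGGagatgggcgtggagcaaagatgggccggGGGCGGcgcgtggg
Cdkn2a, Ink4a start, chr4:89282193-89282442, minus strand: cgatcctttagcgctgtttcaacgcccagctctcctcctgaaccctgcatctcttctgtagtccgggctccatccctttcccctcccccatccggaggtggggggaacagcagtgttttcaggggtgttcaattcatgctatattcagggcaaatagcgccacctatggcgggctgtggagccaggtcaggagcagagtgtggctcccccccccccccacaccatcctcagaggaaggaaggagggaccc
Cdkn2b, chr4:89311033-89311282, minus strand: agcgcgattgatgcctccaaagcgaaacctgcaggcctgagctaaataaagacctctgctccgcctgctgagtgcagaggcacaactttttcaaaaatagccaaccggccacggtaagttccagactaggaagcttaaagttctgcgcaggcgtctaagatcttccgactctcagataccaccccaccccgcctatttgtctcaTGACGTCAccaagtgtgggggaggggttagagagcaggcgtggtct
Cdkn1a, upstream start, chr17:29090729-29090978, plus strand: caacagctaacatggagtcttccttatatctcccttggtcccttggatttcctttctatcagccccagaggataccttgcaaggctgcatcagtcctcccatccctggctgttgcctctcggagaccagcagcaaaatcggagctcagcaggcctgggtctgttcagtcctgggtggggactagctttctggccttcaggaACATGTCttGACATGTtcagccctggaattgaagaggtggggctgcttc
Cdkn1a, downstream start, chr17:29093519-29093768, plus strand: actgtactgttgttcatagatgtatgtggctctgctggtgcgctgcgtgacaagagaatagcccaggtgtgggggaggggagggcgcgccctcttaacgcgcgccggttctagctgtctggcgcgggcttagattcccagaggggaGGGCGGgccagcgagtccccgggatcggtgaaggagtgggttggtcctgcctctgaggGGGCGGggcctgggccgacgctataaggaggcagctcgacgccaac
The Arf window held 1 E2F site, beginning 99 bases before the start, and 2 GC boxes at 48 and 14 bases. The Ink4a window held no match to these motifs. The Cdkn2b window held the response element at 46 bases. The window before the upstream start of Cdkn1a held 2 p53 half-sites at 49 and 40 bases, and its downstream start, 2.79 kb away, had 2 GC boxes at 104 and 46 bases. Of all 32851 windows of this length, 32.7% held a GC box, 1.30% an E2F site, 1.55% the response element and 1.62% a p53 half-site, and 6.75%, 6.02% and 12.4% held an AP1 site, an E-box and a TATA box. A letter match is no evidence that a factor binds there.

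The libraries were first checked against their labels. Mapk8 was 23.1, 25.1 and 19.2 FPKM in MEC and 5.93, 3.12 and 1.37 in lines 199, 233 and 336, and Mapk9 was 21.5 to 24.4 against 3.07 to 7.62. Both fell (log2 change -2.52, adjusted p = 0.0146, and -2.17, adjusted p = 0.0122, limma with Benjamini-Hochberg adjustment), though each call was lost when any 1 MEC library was left out (-2.62 to -2.12). Of 12 tested luminal markers 8 fell and 0 rose, and their summed level was 5919 to 9453 FPKM in MEC and 948 to 2369 in the lines. Among them, Krt19 fell by 5.34 (adjusted p = 0.00382), Elf5 by 5.01 (adjusted p = 0.000645) and Pgr by 3.33 (adjusted p = 0.00094) on the log2 scale in the limma fit, and Pgr was listed at 0 in all 3 lines. Other luminal markers stayed abundant in the lines, such as Krt8 at 230.1 to 539 FPKM (1844 to 3406 in MEC) and Epcam at 128 to 252 (519 to 549), and Cldn3 in line 336 (357) exceeded its MEC range of 299.5 to 313. Basal and myoepithelial markers summed to 2506 FPKM in line 199, 75.3 in line 233 and 80.6 in line 336, against 1978 to 3741 in MEC, with 4 of 12 called lower (Myh11, Mylk and Oxtr the furthest). The sum in line 199 was mainly Krt5, Krt14, Krt17 and Acta2, while 5 of the 12 markers lay below MEC there by more than 1 on the log2(FPKM + 1) scale. Fibroblast markers summed to 1943 FPKM in line 199 against 256 to 421 in MEC, 282 in line 233 and 89.9 in line 336, with 1 of 11, Dcn, called lower. A single gene, Fbln2, gave 278 of the FPKM in line 233 and 65.8 in line 336, where Col1a1 was at 1.08 and 0.566, against 599.7 in line 199. Endothelial markers (0 of 3 called) summed to 2.73 to 26.3 FPKM in MEC and 0.221 to 2.2 in the lines, leukocyte markers (2 of 4, Lyz2 and Tyrobp, called lower) to 26.4 to 47.1 and 1.21 to 24.9 (the highest being line 336, with Cd68 at 23.5), and adipocyte markers (0 of 3 called, with Adipoq at 0 in every MEC library) to 5.97 to 17.8 and 3.10 to 11.9. MEC 3 stood apart from MEC 1 and MEC 2 by a lower level of proliferation genes (517 against 1149 and 1257 FPKM summed over 26 genes). In bulk samples, fewer cells of a type and less RNA per cell cannot be told apart.

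One of the 7 CDK inhibitors, Cdkn2a, passed the test, and it rose. Across all entries the same test called 2.64% higher and 7.26% lower, and 0 members were called lower. Of the called entries 26.7% were higher, a share of 37.9% under quantile normalization. An unadjusted limma p under 0.05 was seen for 4 of the 7. The share of all tested entries with such a p was not worked out, so this count has no background beside it. In 3 members, all INK4 genes (Cdkn2a, Cdkn2c and Cdkn2d), every line lay above every MEC library, a separation seen in 18.5% of all tested entries in that direction and 18.7% in the other, where it held for 0 members. The mean log2 values of 6 members were higher in the lines, as were those of 6381 of the 12461 tested entries. The median log2 change of the 7 was 0.93 against 0.01 for all tested entries.

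**Figure D1:**
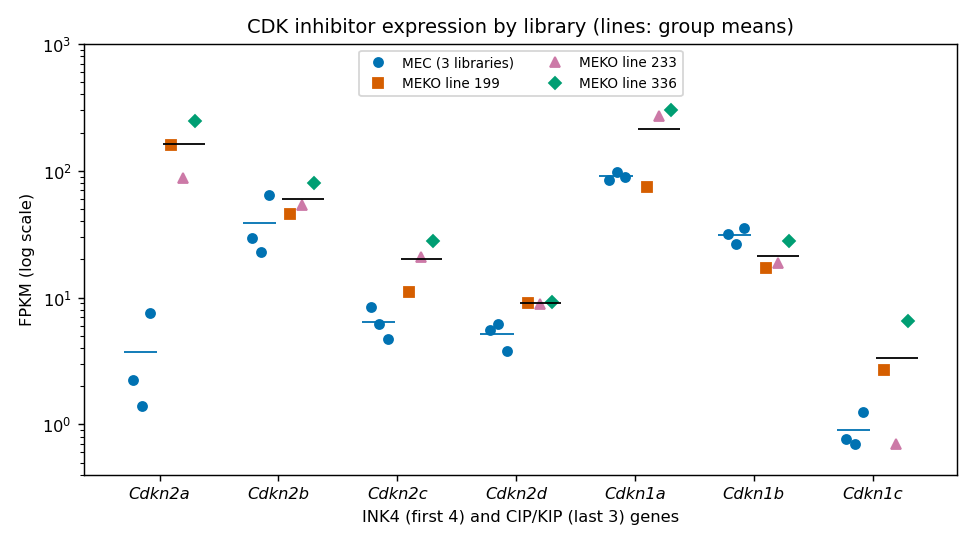
FPKM (log axis) of the 7 CDK inhibitor genes in each library, with MEC libraries as circles, lines 199, 233 and 336 as square, triangle and diamond, and short horizontal lines for the group means (n = 3 each). Cdkn2a is at 1.39 to 7.54 in MEC and 87.8 to 246 in the tumor lines, whereas Cdkn1a is split, with line 199 (73.8) below MEC and lines 233 and 336 (268 and 304) above.

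Cdkn2a (ENSMUSG00000044303; chr4:89274471-89294653, minus strand, with 2 protein-coding transcripts) was low in MEC and abundant in every line. Its level was 2.23, 1.39 and 7.54 FPKM in MEC 1, 2 and 3, and 159, 87.8 and 246 in lines 199, 233 and 336. The groups were far apart, and MEC 3, the least proliferative culture by its marker sum, had the highest MEC value. The means were 3.72 ± 3.34 and 164 ± 79.4 (SD, n = 3 each), a 44.2-fold difference that became 91.0-fold without MEC 3, 36.9-fold without MEC 1 and 33.7-fold without MEC 2. On the log2(FPKM + 1) scale the increase was 5.24 with a standard error of 0.57 (adjusted p = 0.00452, limma with Benjamini-Hochberg adjustment), the 8th largest increase of 12461 entries. It was called under all 13 alternative settings, with log2 changes of 4.86 to 5.78 and adjusted p-values of 0.00147 to 0.0348. An exact permutation test of the 6 values gave p = 0.1, the smallest value that 3 against 3 libraries allow, so that test cannot reach 0.05 for any gene here. How much of the signal came from the Arf start and how much from the Ink4a start was not analysed here.

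Cdkn2b (p15Ink4b; ENSMUSG00000073802; chr4:89306299-89311039, minus strand) lies 11.6 kb from Cdkn2a and is known as a target of TGF-beta signaling. It was the leading INK4 transcript of the normal cells, at 29.7, 22.8 and 64.4 FPKM in MEC and 45.7, 53.7 and 79.9 in the lines. The groups overlapped, since MEC 3 exceeded lines 199 and 233. The means of 39.0 ± 22.3 and 59.8 ± 17.9 differed by 0.70 on the log2 scale (SE 0.41, adjusted p = 0.309, limma; exact permutation p = 0.3), which did not pass the test. The 2 neighbours thus gave a 44.2-fold and a 1.53-fold ratio of means, though the difference between these ratios was not tested.

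Cdkn2c (p18Ink4c; ENSMUSG00000028551; chr4:109660876-109667189, minus strand), an inhibitor known from luminal differentiation, sits 20.3 Mb further along the same chromosome. It measured 8.46, 6.24 and 4.70 FPKM in MEC and 11.1, 21.0 and 27.9 in lines 199, 233 and 336. The groups did not overlap, but line 199 was only slightly above MEC 1. The means were 6.47 ± 1.89 and 20 ± 8.41, a 3.09-fold ratio, and the log2 difference of 1.43 (SE 0.36) had an adjusted p of 0.056 (limma), just short of the threshold. It passed under quantile normalization (1.50, adjusted p = 0.0491), with sample weights (1.32, adjusted p = 0.0332) and without line 199 (1.79, adjusted p = 0.0141), and over all 13 alternatives in limma the adjusted p ran from 0.0141 to 0.182.

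Cdkn2d (p19Ink4d; ENSMUSG00000096472; chr9:21288410-21291407, minus strand), an INK4 protein whose level follows the cell cycle, was the most uniform member among the tumor lines. It was at 5.57, 6.16 and 3.76 FPKM in MEC, and 9.09, 8.92 and 9.18 in the lines, every line above every MEC culture. The highest line exceeded the lowest by 1.03-fold, against 2.81-fold for Cdkn2a and 2.50-fold for Cdkn2c. The means of 5.17 ± 1.25 and 9.06 ± 0.129 were 1.75-fold apart, and the log2 difference of 0.73 (SE 0.20, adjusted p = 0.0716, limma) did not pass.

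Cdkn1a (p21; ENSMUSG00000023067; chr17:29090976-29100727, plus strand) was the most abundant member in MEC and divided the tumor lines. MEC libraries held 85.2, 97.6 and 88.6 FPKM, line 199 held 73.8, and lines 233 and 336 held 268 and 304. Line 199 thus lay below all MEC libraries, at 0.816 of their mean, and the other lines at 2.96-fold and 3.37-fold. The group means of 90.5 ± 6.43 and 215 ± 124 differed by 1.00 on the log2 scale (SE 0.53, adjusted p = 0.264, limma; exact permutation p = 0.4), so no difference was called. Without line 199 the log2 difference was 1.65 and passed (adjusted p = 0.00271, limma), and with sample weights it was 1.32 (adjusted p = 0.0367, limma); over all 13 alternatives the limma adjusted p ran from 0.00271 to 0.485. An antisense gene model, AC167363.2, shares 7.68% of the exonic bases of Cdkn1a, and reads of the 2 strands may not have been kept apart.

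Cdkn1b (p27; ENSMUSG00000003031; chr6:134920401-134925513, plus strand) was the only member with a lower mean in the lines. Its values were 31.5, 26.5 and 35.2 FPKM in MEC and 17.2, 18.8 and 28.0 in lines 199, 233 and 336. Lines 199 and 233 lay below all MEC libraries, but line 336 was within their range. The MEC mean of 31.1 ± 4.40 was 1.45 times the line mean of 21.3 ± 5.83, and the log2 difference of -0.54 (SE 0.22, adjusted p = 0.176, limma; exact permutation p = 0.2) did not pass.

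Cdkn1c (p57; ENSMUSG00000037664; chr7:143458339-143461050, minus strand) was the least abundant member in all 6 libraries. It was at 0.772, 0.699 and 1.26 FPKM in MEC, and at 2.67, 0.706 and 6.57 in lines 199, 233 and 336. Line 233 was within the MEC range, while line 336 was at 7.23 times the MEC mean. The means of 0.909 ± 0.303 and 3.31 ± 2.98 differed by 0.93 on the log2 scale (SE 0.54, adjusted p = 0.303, limma; exact permutation p = 0.3), which did not pass. The gene model Gm44732 on the opposite strand shares 30.7% of the exonic bases of Cdkn1c, and how much of the value came from it was not tested.

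The lines differed in how many inhibitors lay above the normal range. Counting only values beyond every MEC library by more than 1 on the log2(FPKM + 1) scale, line 199 exceeded MEC in 1 member (Cdkn2a), line 233 in 3 (Cdkn2a, Cdkn2c and Cdkn1a) and line 336 in 4 (the same 3 and Cdkn1c). Among all tested entries, 4.99%, 4.62% and 4.70% lay above in lines 199, 233 and 336 by that margin. No member lay below by that margin in any line, against 9.22%, 11.0% and 11.5% of entries. These are single libraries, so no test was made for a single line. Line 336 had the highest value of the 3 lines for all 7 genes, although for Cdkn2d by a small step.

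**Figure D2:**
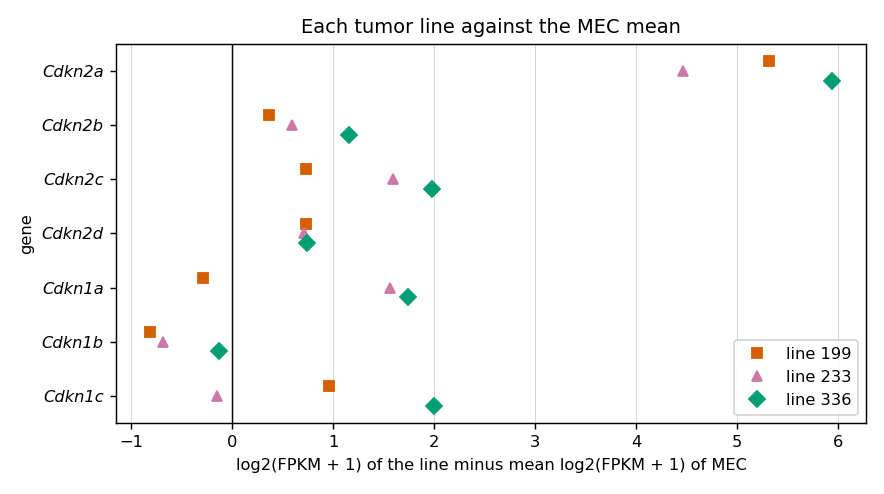
Difference between each tumor line and the MEC mean on the log2(FPKM + 1) scale (x axis) for each gene (y axis), 1 symbol per line, with 0 meaning equal to MEC. Cdkn2a lies at 4.46 to 5.94 in all 3 lines, Cdkn2d at 0.71 to 0.74, and Cdkn1a at -0.29 in line 199 but 1.56 and 1.74 in lines 233 and 336.

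FPKM is scaled by transcript length, so levels of different members can be added and ordered. The INK4 sum was 45.9, 36.6 and 80.4 FPKM in MEC and 225, 171 and 363 in lines 199, 233 and 336 (means 54.3 ± 23.0 and 253 ± 99.0, a 4.66-fold ratio). Most of that gap was Cdkn2a: without it the sums were 43.7, 35.2 and 72.8 in MEC and 65.9, 83.6 and 117 in the lines, and the lowest line was then below MEC 3. Cdkn2a made up 4.86%, 3.78% and 9.38% of the INK4 sum in MEC and 70.7%, 51.2% and 67.8% in the lines. This sum includes any Arf transcripts of Cdkn2a, which do not encode a CDK inhibitor. The leading INK4 gene was Cdkn2b in every MEC library (62.3 to 80.1% of the sum) and Cdkn2a in every line.

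The CIP/KIP sum showed no such separation. It was 117, 125 and 125 FPKM in MEC and 93.7, 287 and 339 in the lines (122 ± 4.35 and 240.0 ± 129), with line 199 below MEC. Cdkn1a was the largest part of it throughout, 70.8 to 78.2% in MEC and 78.8 to 93.2% in the lines. The share of Cdkn1b was 21.2 to 28.2% in MEC and 18.4%, 6.55% and 8.26% in lines 199, 233 and 336. Over both families, Cdkn1a ranked first in all MEC libraries and in lines 233 and 336, whereas Cdkn2a ranked first in line 199 and second in the other two. In MEC, Cdkn2a ranked sixth of the 7 in libraries 1 and 2 and above Cdkn2c and Cdkn2d in library 3. Cdkn1b and Cdkn2b were close neighbours in this order, and their MEC ranges of 26.5 to 35.2 and 22.8 to 64.4 FPKM overlapped.

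**Figure D3:**
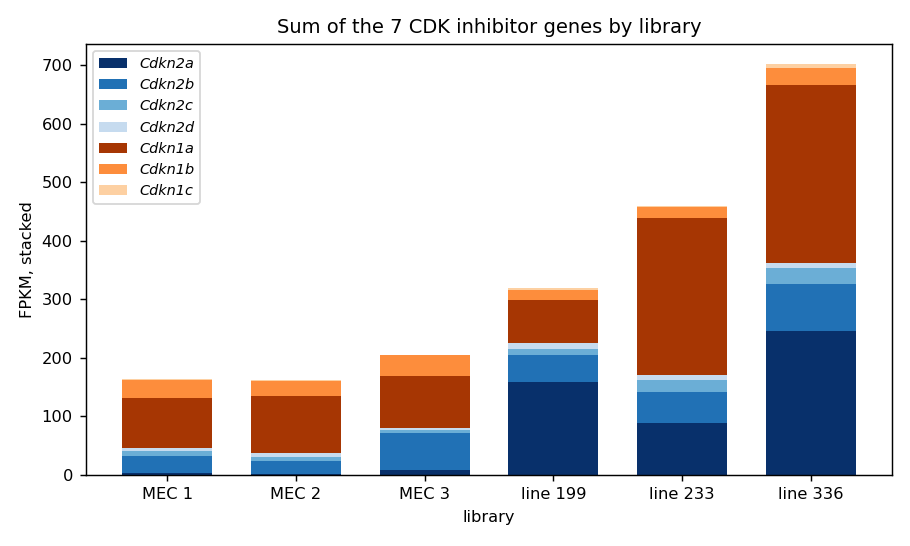
Stacked FPKM of the 7 genes in each library, INK4 genes in blue shades and CIP/KIP genes in orange shades, from a baseline of 0. The MEC bars reach 161 to 205 and consist mainly of Cdkn1a, Cdkn1b and Cdkn2b, and the line bars reach 319, 459 and 702, with Cdkn2a at 50.0%, 19.1% and 35.1% of the total.

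The kinases that these proteins inhibit were present in every library. Of the 5 cyclin D and partner kinase genes (INK4 targets), 0 were called, with a median log2 difference of 0.57. Cdk4 was more abundant than any INK4 inhibitor in every library, at 303, 314 and 354 FPKM in MEC and 442, 462 and 537 in the lines (log2 difference 0.57, adjusted p = 0.0555, limma). Cdk6 was at 5.91 to 7.99 and 9.75 to 17.1. Ccnd1, the main mammary D-type cyclin, was at 119 to 174 FPKM in MEC and 314 to 806 in the lines (1.53, adjusted p = 0.0586, limma), reaching its highest value in line 233, and it passed without that line (1.08, adjusted p = 0.0456, limma) and with sample weights (1.60, adjusted p = 0.0179, limma). Ccnd2 split the lines instead, with 15.6 to 21.1 FPKM in MEC and 76.2, 17.2 and 1.44 in lines 199, 233 and 336, and Ccnd3 was at 27.0 to 44.2 and 35.5 to 46.8. The ratio of summed INK4 to summed Cdk4 and Cdk6 FPKM was 0.147, 0.114 and 0.222 in MEC and 0.497, 0.358 and 0.664 in the lines. The INK4 sum includes any Arf transcripts, so this ratio is an upper limit for transcripts of INK4 inhibitors. Even so, the INK4 sum remained below that of the 2 kinases in all 6 libraries.

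Of the 14 tested genes for cyclin E, A and B kinases and their activators (CIP/KIP targets), 0 were called higher and 1 lower. The lower gene was Wee1, an inhibitory kinase of Cdk1, at 20.6, 21.5 and 27.3 FPKM in MEC and 12.1, 8.26 and 13.7 in the lines (log2 change -0.98, adjusted p = 0.0437, limma), a call kept under 6 of 13 alternatives. Cdk2 was at 9.37 to 17.1 and 13.8 to 20.2 FPKM, with an adjusted p of 0.392 (limma). Ccne1 was at 6.98 to 14.4 FPKM in MEC and 25.2, 11.4 and 42.7 in lines 199, 233 and 336 (adjusted p = 0.247, limma), and Ccne2 at 1.62 to 7.48 and 9.08 to 21.4 (adjusted p = 0.172, limma). The ratio of the CIP/KIP sum to Cdk2 plus Cdk1 was 0.651, 0.671 and 1.44 in MEC and 0.333, 1.38 and 1.53 in lines 199, 233 and 336. By this ratio line 199 was the lowest library, and MEC 3 was with lines 233 and 336. Cdk1 itself was at 166, 169 and 77.8 FPKM in MEC 1, 2 and 3 and 261, 194 and 203 in the lines. The order of the libraries therefore also reflects the kinase level, not the inhibitors alone.

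Downstream of the kinases, no gene of the 3 pocket proteins or the 10 E2F factors and partners was called, with median log2 differences of -0.38 and 0.45. Rb1, whose protein the INK4 branch keeps active, was at 11.6, 9.72 and 12.2 FPKM in MEC and 4.38, 9.12 and 4.72 in the lines, without overlap (log2 difference -0.84, adjusted p = 0.112, limma). It passed without line 233 (-1.13, adjusted p = 0.0308, limma). Its relatives Rbl1 (7.57 to 14.3 and 10.2 to 16.6 FPKM) and Rbl2 (7.20 to 11.4 and 5.73 to 7.29) had limma adjusted p-values of 0.793 and 0.292. All 26 tested S phase and mitosis genes had higher means in the lines by a median of 0.70 on the log2 scale, but 0 were called by limma. That count and size leaned on MEC 3: without it 24 of the 26 were higher and the median was 0.32. Their summed level was 1149, 1257 and 517 FPKM in MEC and 1972, 1376 and 1305 in lines 199, 233 and 336. Cdkn2a was at 87.8 FPKM or more in these lines, and their proliferation sums were above those of all 3 normal cultures. For line 336 the margin was small (1305 against 1257 in MEC 2). In that line some genes of the list, such as Mcm2 and Rrm2, were inside the MEC range, and others, such as Mki67, were above it.

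The arm from Arf to p53 was then read. Of its 7 genes 0 were called, with a median log2 difference of 0.30. Trp53 transcripts were level at 95.6 to 101 FPKM in MEC and 87.4, 134 and 89.4 in the lines (adjusted p = 0.913, limma). Mdm2, both the partner of p19Arf and a p53 target, was at 51.9, 58.0 and 61.6 FPKM in MEC and 55.1, 276 and 157 in lines 199, 233 and 336. Like Cdkn1a, it was near MEC in line 199 and above MEC in the other lines, and it was not called over the 3 lines (1.22, adjusted p = 0.207, limma) but was called without line 199 (1.85, adjusted p = 0.0119, limma) and with sample weights (1.67, adjusted p = 0.0244, limma). FPKM cannot show whether the Trp53 transcripts carry sequence changes.

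Of 29 tested p53 target genes other than Cdkn1a, 3 were called higher and 1 lower, with a list median of 0.42. The higher genes were Pmaip1, which encodes the death factor Noxa (13.0 to 19.7 FPKM in MEC and 28.9, 81.1 and 90.4 in the lines, adjusted p = 0.0498, limma), Ckap2 (13.3 to 20.5 and 37.1 to 57.5, adjusted p = 0.0209, limma) and Zmat3 (12.4 to 19.4 and 31.6 to 42.6, adjusted p = 0.0182, limma). The lower gene was Ddit4, an inhibitor of mTOR signaling (159 to 193 and 37.8 to 77.4 FPKM, adjusted p = 0.0158, limma). Over 13 alternatives the calls were kept under 2 for Pmaip1, 8 for Ckap2, 9 for Zmat3 and 10 for Ddit4. Read line by line, the list lay at a median of -0.05 in line 199, 0.95 in line 233 and 0.61 in line 336, against 0.01, 0.00 and 0.02 for all tested entries. By the margin of 1 on the log2 scale, 0, 12 and 11 of the 29 genes lay above MEC in lines 199, 233 and 336, and 4, 2 and 2 lay below. Ccng1 was at 71.8 to 108 FPKM in MEC and 44.8, 292 and 334 in the lines, and Bax, a mitochondrial death effector, at 60.3 to 67.9 and 63.4, 179 and 195. Phlda3 was at 71.9 to 82.7 FPKM in MEC and 84.2, 183 and 185 in the lines, and the receptor gene Eda2r at 3.99 to 8.62 and 3.92, 37.0 and 20.4. Lines 233 and 336 were above MEC for all of these, while line 199 was near MEC or, for Ccng1, clearly below it (0.534 of the MEC mean). These 4 genes were picked for that order after their values were seen, and other targets had a different one. Gadd45a was at 38.1 to 45.9 FPKM in MEC and 30.8, 16.2 and 2.64 in the lines, and Fas at 1.54 to 4.11 and 7.87, 4.01 and 2.11. Over the whole list, limma called 11 of 29 higher and 2 lower without line 199, 0 either way without MEC 1 or without MEC 2, 1 higher without MEC 3, and 1 lower without line 233 or line 336. Line 199 was also the line with high fibroblast and basal marker sums, and the part of these in the difference between lines was not tested.

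**Figure D4:**
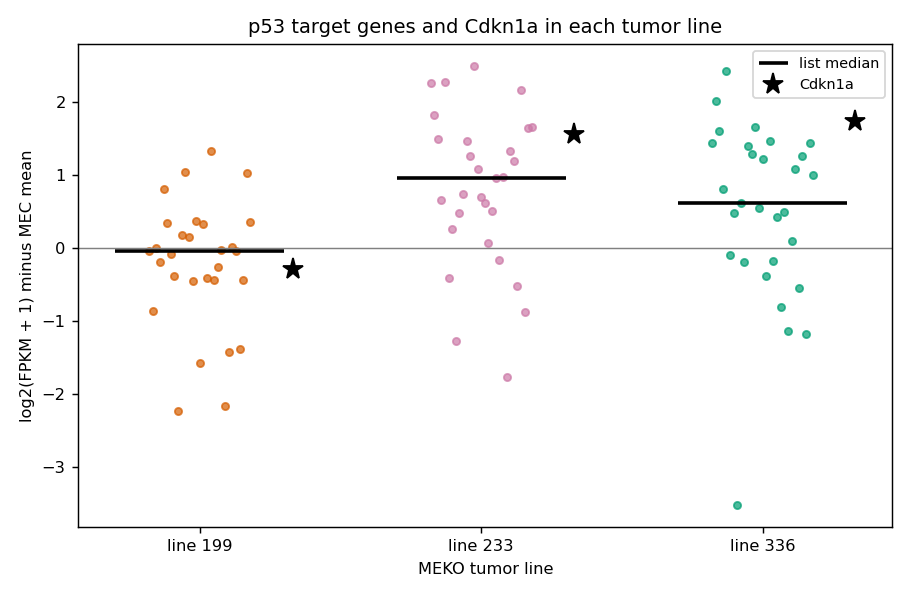
Log2(FPKM + 1) of 29 p53 target genes minus their MEC mean in each tumor line (1 point per gene), with the list median as a bar and Cdkn1a as a star. The medians are -0.05, 0.95 and 0.61 in lines 199, 233 and 336, and Cdkn1a is at -0.29, 1.56 and 1.74.

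Regulators of the members were mostly not called. Among 22 tested polycomb and other repressors, several of which are known to silence the Cdkn2a locus, 0 were called higher and 1 lower, with a median log2 difference of 0.09 (Hmga2, also known as a repressor of Cdkn2a, was counted with the senescence genes and rose). The lower gene was Tbx3, a T-box repressor of Arf, at 12.3, 16.4 and 12.9 FPKM in MEC and 4.12, 0.0513 and 1.03 in lines 199, 233 and 336 (-2.74, adjusted p = 0.0308, limma). Bmi1, the best known repressor of this locus, was at 17.2 to 19.4 and 26.1 to 28.3 FPKM (0.57, adjusted p = 0.0477, limma), past the p threshold but under the fold threshold. Ezh2 (22.2 to 31.1 and 29.8 to 40.9 FPKM) and Cbx7 (5.29 to 6.56 and 5.50 to 8.26) had adjusted p-values of 0.274 and 0.838 in limma.

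Of 22 genes listed as transcriptional inducers, 1 was called higher and 4 lower, with a median of -0.33. Klf4, an activator of Cdkn1a, rose from 7.83 to 12.3 FPKM in MEC to 16.1 to 30.5 in the lines (adjusted p = 0.0487, limma). Foxo1 (11.4 to 21.3 and 3.56 to 7.17 FPKM, adjusted p = 0.0446), Ets1 (50.2 to 52.1 and 17.4 to 27.2, adjusted p = 0.0144), Zbtb17 (10.4 to 11.7 and 4.57 to 7.15, adjusted p = 0.0408) and the luminal factor Gata3 (13.6 to 21.5 and 0.279 to 5.52, adjusted p = 0.0435) fell in the limma fit. Ets1 is known as an activator of Ink4a and Zbtb17 (Miz1) as one of Cdkn2b and Cdkn1a. Whether Gata3 induces or represses each member, Cdkn2c among them, was not tested. Dmtf1, an inducer of Arf, was at 9.39 to 11.5 and 10.8 to 14.3 FPKM (adjusted p = 0.316, limma), Foxo3 at 11.6 to 19 and 16.0 to 20 (adjusted p = 0.396, limma), and the basal factor Trp63 at 7.94 to 11.3 in MEC and 15.6, 0.0633 and 4.47 in the lines (adjusted p = 0.422, limma). Myc rose from 45.3 to 78.4 FPKM to 112 to 147 (1.03, adjusted p = 0.0486, limma). Of 15 genes for the turnover of CDK inhibitor proteins 0 were called (median 0.44), and Skp2, which marks p27 for destruction, was at 3.29 to 5.63 and 7.61 to 13.0 FPKM without overlap (0.98, adjusted p = 0.064, limma), passing under quantile normalization (1.12, adjusted p = 0.0473, limma). Of these regulators, the call of Myc was kept under 1 of 13 alternatives, that of Klf4 under 3, those of Foxo1 and Zbtb17 under 6 each, those of Gata3 and Tbx3 under 7 each and that of Ets1 under 10, and each was lost without any 1 MEC library.

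Senescence-associated genes, many of which often accompany Cdkn2a in arrested cells, had no common direction. No expected direction was set for the single genes of this list, Lmnb1 among them, so its counts and medians do not score senescence. Of 23 tested, 1 was called higher and 3 lower, with a median of -0.25, and the list medians by line were 0.49, -1.43 and -0.48 in lines 199, 233 and 336. Hmga2, a chromatin protein of embryonic and tumor cells, rose from 1.21 to 2.30 FPKM to 75.8 to 116 (5.03, adjusted p = 0.000645, limma) and is known as a repressor of Cdkn2a as well as a senescence marker. Igfbp5 (103 to 244 and 0.0318 to 1.55 FPKM, adjusted p = 0.00139), Mmp9 (32.8 to 106 and 0.00826 to 4.07, adjusted p = 0.011) and Tnf (2.71 to 7.30 and listed at 0 in each line, adjusted p = 0.00989) fell in the limma fit. Of the 23 genes, 9 had a positive log2 change. Among uncalled genes, every line was above every MEC library for Cxcl5 (1.95 to 13.8 and 34.5 to 977 FPKM), Il1a (1.54 to 2.67 and 3.24 to 462) and Cxcl1 (7.41 to 38.1 and 46.3 to 354). The same held for Hmga1 (58.4 to 147 and 227 to 326 FPKM). Every line was below for Timp1 (102 to 254 and 31.6 to 90.8) and Plau (296 to 319 and 232 to 293).

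**Figure D5:**
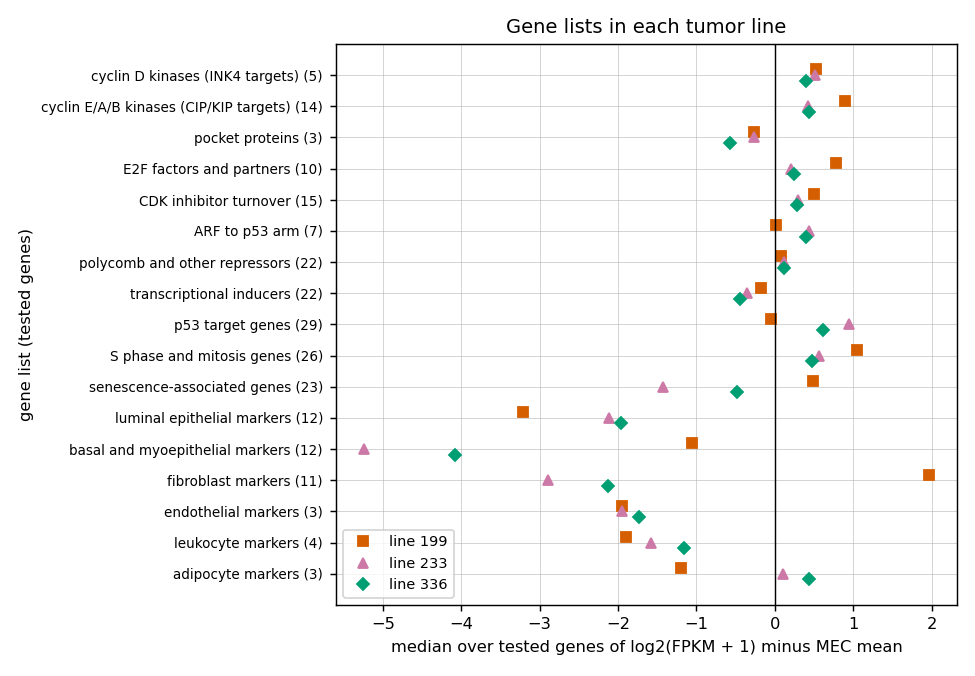
Median difference from the MEC mean on the log2(FPKM + 1) scale of each gene list (tested genes in parentheses) in lines 199, 233 and 336. S phase and mitosis genes are above 0 in all 3 lines, p53 targets are above 0 in lines 233 and 336 only (0.95 and 0.61, against -0.05 in line 199), and luminal markers are below 0 in all 3 (-3.21, -2.12 and -1.96).

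The surroundings of each member were read from the 20 nearest tested genes, 10 on either side (19 for Cdkn2a and Cdkn2b, with the members left out). Around Cdkn2a their median log2 difference from MEC was -0.04, 0.18 and 0.23 in lines 199, 233 and 336, where Cdkn2a itself was at 5.31, 4.46 and 5.94. Mtap, the nearest tested gene on one side, was at 51.3, 48.7 and 43.1 FPKM in MEC and 140.0, 95.1 and 67.7 in the lines (1.01, adjusted p = 0.0651, limma). It was called with sample weights (0.86, adjusted p = 0.025, limma) and without line 336 (1.26, adjusted p = 0.0338, limma), and its order among the lines was not that of Cdkn2a. Around Cdkn1a the medians were 0.30, -0.01 and 0.43, and around Cdkn2c they were -0.16, -0.00 and 0.13. The highest surroundings were those of Cdkn1c in line 233 (0.91), the line in which Cdkn1c was within the MEC range.

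Cdkn1c belongs to an imprinted cluster, of which 10 genes were tested, 0 were called higher and 1 lower. The lower gene was Slc22a18, which like Cdkn1c is expressed from the maternal copy, at 3.39, 6.06 and 6.44 FPKM in MEC and 0.933, 1.58 and 0.0949 in lines 199, 233 and 336 (-1.80, adjusted p = 0.0374, limma), a call kept under 3 of 12 alternatives. Kcnq1, which overlaps the antisense RNA of the cluster, was at 2.19 to 2.46 FPKM in MEC and 0.179, 5.54 and 0.0217 in the lines, so it was high in the line where Cdkn1c was lowest, and it passed as lower without that line (-1.58, adjusted p = 0.0161, limma). Igf2, a paternally expressed growth factor at the other end of the cluster, was at 0.229, 0.713 and 1.10 FPKM in MEC and 0.823, 1.47 and 529 in the lines, a single high value in line 336 (adjusted p = 0.39, limma). Line 336 was also the highest for Cdkn1c. Allele-specific expression was not analysed here.

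For each member the 2 entries with the most similar profile were found by the root-mean-square difference of centred log2(FPKM + 1) over the 6 libraries. This measure grows with the spread of the member itself, which was widest for Cdkn2a (root mean square 2.71). The nearest to Cdkn2a were Gm10040 (0.62, r = 0.98) and Gm9864 (0.79, r = 0.96), both annotated as pseudogenes. They were at 1.86 to 2.83 and 2.03 to 4.17 FPKM in MEC and at 46.2 to 144 and 50.5 to 143 FPKM in the lines. The nearest profiles to Cdkn2b were Stard6 (0.14) and Gnaq (0.16), to Cdkn2c Agpat5 (0.16) and Haus7 (0.21), and to Cdkn2d Mapk12 (0.05) and Pa2g4 (0.06). Cdkn1a was closest to Nadsyn1 (0.14, at 3.37 to 3.87 FPKM in MEC and 2.98, 15.0 and 16.1 in the lines) and Inf2 (0.15). Cdkn1b was closest to Psme4 (0.07) and Lmf1 (0.08), and Cdkn1c to Mgst2 (0.19) and Lbh (0.25). These values describe 6 shared libraries in 2 groups and carry no test.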

How the data were processed

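RNA-seq (paired reads of 150 bp) was compared between 3 MEC cultures and 3 MEKO tumor cell lines. According to the deposited notes and methods, the authors trimmed reads (Trimmomatic 0.36), aligned them to the mouse genome GRCm38 (TopHat2 2.0.14, Bowtie2) and deposited FPKM per gene from Cufflinks 2.2.1 (fragments per kilobase of transcript scaled to mapped reads). Library depth cannot be recovered from FPKM, so the counting error of a value is unknown. Strand handling was not given in the sources used here. No column of the authors' own comparisons was used.

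The table was read at 37753 entries with values. Each member symbol matched 1 entry. Entries with a mean of at least 1 FPKM (12461) were tested with limma 3.58.1 (R 4.3.3) on log2(FPKM + 1), with a trended prior variance and adjustment by Benjamini and Hochberg, using all 6 libraries without covariates. A gene was called at an adjusted p below 0.05 and a log2 change beyond 0.75. Fold changes on the log2(FPKM + 1) scale understate the change of low genes. Exact permutation tests were two-sided. The fit was tested on simulated data. Each library was also left out in turn, and pseudocount, filter, scaling and variance model were varied. Nothing in the labels says that the MEC preparations shared mice, and p-values measure the spread between these 6 libraries.

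The members and gene lists were chosen with earlier results of these data known. Beyond the members, Mapk8 and Mapk9, the text names a preset group of cell-cycle genes, up to 3 called genes per list with the largest change, and the 2 entries closest in pattern to each member; other named genes were chosen after their values were seen. Promoter windows came from RefSeq (GRCm38.p6) and gene coordinates from GENCODE M21 (GRCm38).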

Additional observations from a re-analysis of the deposited data

How the results depend on the processing

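No paired analysis was made because the MEC cultures and the MEKO lines came from separate mice. The call of Cdkn2a and the lack of one for Cdkn2b, Cdkn2d, Cdkn1b and Cdkn1c held under every alternative that gave a value (Cdkn1c gave none with the filter at 5 FPKM). Cdkn2c was 1.50 under quantile normalization, 1.32 with sample weights and 1.16 to 1.79 with 1 library left out, and Cdkn1a was 1.32 with sample weights and 0.64 to 1.65 with 1 library left out; each then passed the test in the settings named in the report. Members called higher numbered 1, but 2 under quantile normalization, 3 with sample weights and 1 to 3 with a library left out. Of all entries, 329 were called higher: 565 with sample weights and 49 to 546 with a library left out (49, 57 and 103 without MEC 1, 2 and 3, and 546 without line 199). Those called lower numbered 905: 501 with the filter at 5 FPKM and 251 to 1340 with a library left out (251, 279 and 457 without MEC 1, 2 and 3). Called entries were 26.7% higher, 37.9% under quantile normalization and 16.3 to 18.4% without 1 MEC library. Distinct pathway-list genes called higher numbered 5: 3 with the filter at 5 FPKM, without a filter, without the variance trend, with the pseudocount of 0.1 or with upper-quartile scaling, 14 with sample weights, and 1 to 14 with a library left out. Those called lower numbered 11: 7 with the filter at 5 FPKM, 5 without a filter, 18 with sample weights, and 1 to 18 with a library left out. The sign of 4 uncalled genes turned: Trp53 to -0.02 with upper-quartile scaling and -0.16 without line 233 (-0.16 to 0.15 with a library left out), Rbl1 to -0.13 with sample weights, -0.12 without MEC 3 and -0.07 without line 199 (-0.12 to 0.30), Ccnd2 to 0.90 without line 336 (-1.59 to 0.90), and Cbx7 to -0.09 without line 336 (-0.09 to 0.16). Without MEC 3 the list medians moved from 0.56 to 0.32 (cyclin E, A and B kinases), 0.45 to 0.19 (E2F factors), 0.44 to 0.23 (turnover) and 0.30 to 0.18 (Arf to p53). Of 28 other named genes that were called, 10 (Hmga2, Igfbp5, Krt19, Elf5, Pgr, Myh11, Mylk, Dcn, Lyz2 and Tyrobp) kept the call under every alternative that gave a value, and 18 lost it without at least 1 MEC library. Apart from the effect of fewer samples, the cause was not tested. Without counts, depth sets an unknown limit, which matters most for Cdkn1c.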
